A study of Thermothelomyces thermophilus with 4 samples.

Results

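Canola straw and oat straw were compared as carbon sources for Myceliophthora thermophila (Thermothelomyces thermophilus), a filamentous fungus that grows at high temperature, with 1 RNA library for each straw out of 4 in the series. The canola culture was harvested after 30 h and the oat culture after 24 h, both as mycelium shaken at 45 °C in Trametes Defined Medium with the straw as carbon source, so the effect of the straw and that of the culture time cannot be told apart in any value below. The other 2 libraries, from flax straw and triticale straw cultures of 24 h at the same temperature, were used only where named. The members of the comparison were the 8246 of 9110 gene models with a mean of at least 1 FPKM over the canola and oat libraries. FPKM is the read count scaled by gene length and by the library total. The canola library held 7977329 reads assigned to genes and the oat library 7308467. For a gene model of the median length, 1733 bases, 3 reads (the limit that a count of 0 allows) amounted to 0.217 FPKM on canola and 0.237 FPKM on oat. Levels were compared as the log2 ratio of FPKM + 1, canola over oat, a scale that understates the change of low genes. With no replicate culture there is no estimate of the spread between cultures and no test, and the intervals given with ratios (95%) cover counting error only.

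Filamentous fungi of this kind feed on straw by secreting hydrolases and oxidative enzymes that open cellulose, hemicellulose and pectin, and by taking up the sugars released. Oat is a grass, whose walls are rich in arabinoxylan, while canola is a dicot, whose walls hold more pectin and whose stems hold glucuronoxylan in place of most of the arabinoxylan. Fungal enzyme genes are commonly controlled by the sugars that a substrate releases and are commonly repressed by free glucose, and such control varies with the stage of the culture. Only 6 gene models had a symbol in the reference gene table, so most genes are given by locus tag and no function is attached to them.

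Most genes were close between the canola and oat libraries, and the differences ran mostly one way. The log2 ratio lay between -0.53 and 0.84 for the genes from the 10th to the 90th percentile, with a median of 0.00, and 3529 of the 8246 genes were within 1.2-fold. At least 2-fold higher on canola than on oat were 594 genes (7.20% of those tested), and at least 2-fold lower were 215 (2.61%). At 4-fold there were 98 higher (1.19%) and 55 lower (0.667%). The median ratio was 2.53-fold within the 594 higher genes and 2.66-fold within the 215 lower genes. The counting interval of the FPKM ratio did not include 1 for 586 of the 594 and for 210 of the 215, which were chosen on the same 2 libraries. It also did not include 1 for 4943 of all 8246 tested genes, so this does not set the called genes apart. The interval lay wholly beyond 2-fold for 371 of the 594 and 138 of the 215, and for 510 of all 8246.

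**Figure D1:**
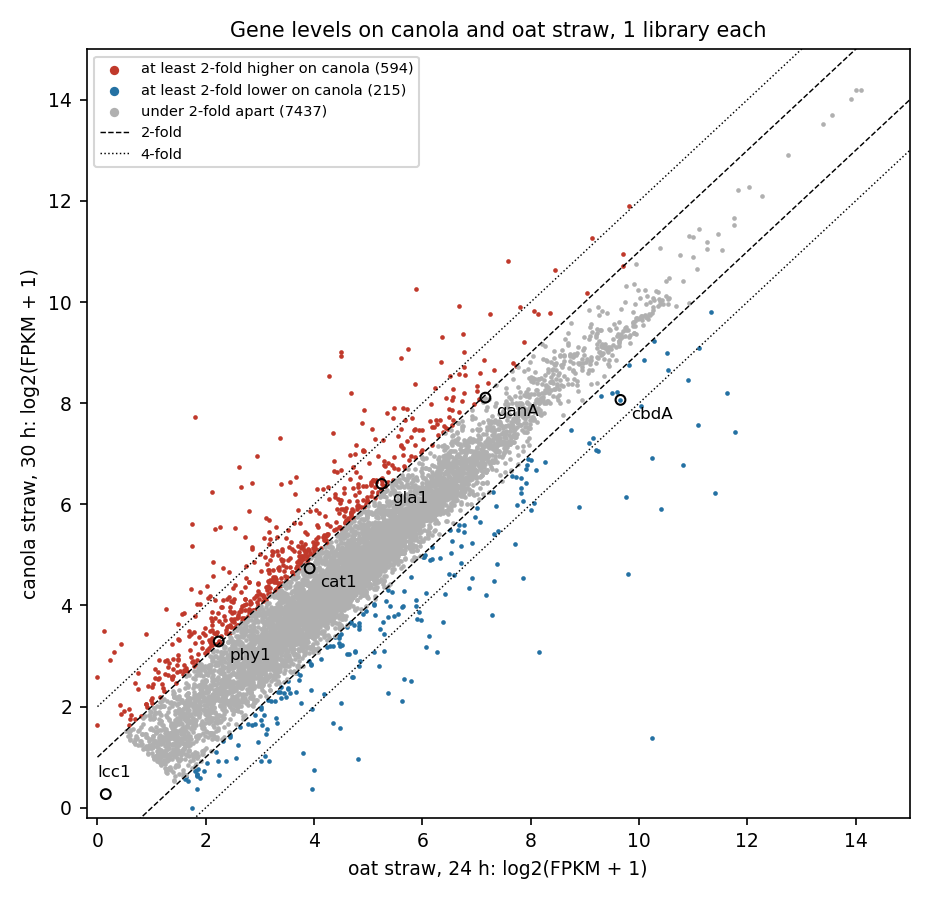
Level of each of the 8246 tested genes on canola straw (y axis) against oat straw (x axis), both as log2(FPKM + 1), with 1 library each. The dashed lines mark 2-fold and the dotted lines 4-fold, and circles mark the genes with a symbol (lcc1 was below the filter). Past 4-fold are 98 of the 594 higher genes and 55 of the 215 lower genes. Several lower genes lie far below the lines at high levels on oat, and some higher genes, such as MYCTH_110028, lie far above them.

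The limits separate genes with nearly the same ratio. Just inside the upper limit, MYCTH_2311847 had 27.4 FPKM on canola and 13.2 on oat (log2 ratio 1.001), while MYCTH_2307600, just outside it, had 88.9 FPKM on canola and 44.0 on oat (0.9992). At the lower limit, MYCTH_2301118 was just inside with 11.6 FPKM on canola and 24.3 on oat (log2 ratio -1.003), and MYCTH_2107271 just outside with 0.893 FPKM on canola and 2.78 on oat (-0.9994). The ratio of FPKM for MYCTH_2107271, oat over canola, was 3.12 with a counting interval of 1.27 to 8.73, since it rests on 7 reads on canola and 20 on oat.

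The genes lower on canola included some genes with abundant transcripts in the oat culture. The 215 lower genes held 2.19% of all canola reads and 8.29% of oat reads, and the 55 that were 4-fold lower held 0.314% of canola reads and 3.09% of oat reads. MYCTH_39279 was the widest of all, with 1.61 FPKM on canola (13 reads) and 1210 on oat (8938 reads). It stood at 2.49 FPKM on flax and 596 on triticale, so it was low on both dicot straws and abundant on both cereal straws. MYCTH_49824 had 74.1 FPKM on canola and 2720 on oat, an oat over canola ratio of 36.7 (33.7 to 40.1). MYCTH_54058 had 23.8 FPKM on canola and 888 on oat, a ratio of 37.4 (33.0 to 42.4). MYCTH_43727, at a lower level, had 7.49 FPKM on canola and 282 on oat, a ratio of 37.7 (29.2 to 49.6). These 3 genes differed by nearly the same factor, which their neighbouring places in the ranking by ratio favour, while their levels on oat spanned 282 to 2720 FPKM.

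MYCTH_55982 had 58.8 FPKM on canola and 1364 on oat, and MYCTH_100068 had 109 FPKM on canola and 1791 on oat. MYCTH_85556 was the most abundant of the group on oat, with 171 FPKM on canola and 3481 on oat, an oat over canola ratio of 20.4 (19.4 to 21.5). MYCTH_2066457 had 69.4 FPKM on canola and 865 on oat. The remaining 2 of the 10 widest lower genes had far lower levels on oat. MYCTH_2299964 had 0.959 FPKM on canola (9 reads) and 27.1 on oat (233 reads), and MYCTH_2297253 had 0.287 FPKM on canola (4 reads) and 14.6 on oat (186 reads). The 10 gene models were between 902 and 1746 bases long, and the median length of the 215 lower genes was 1410 bases, against 1797.5 for all tested genes. Together the 10 took 0.0539% of reads on canola and 1.31% on oat.

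**Figure D2:**
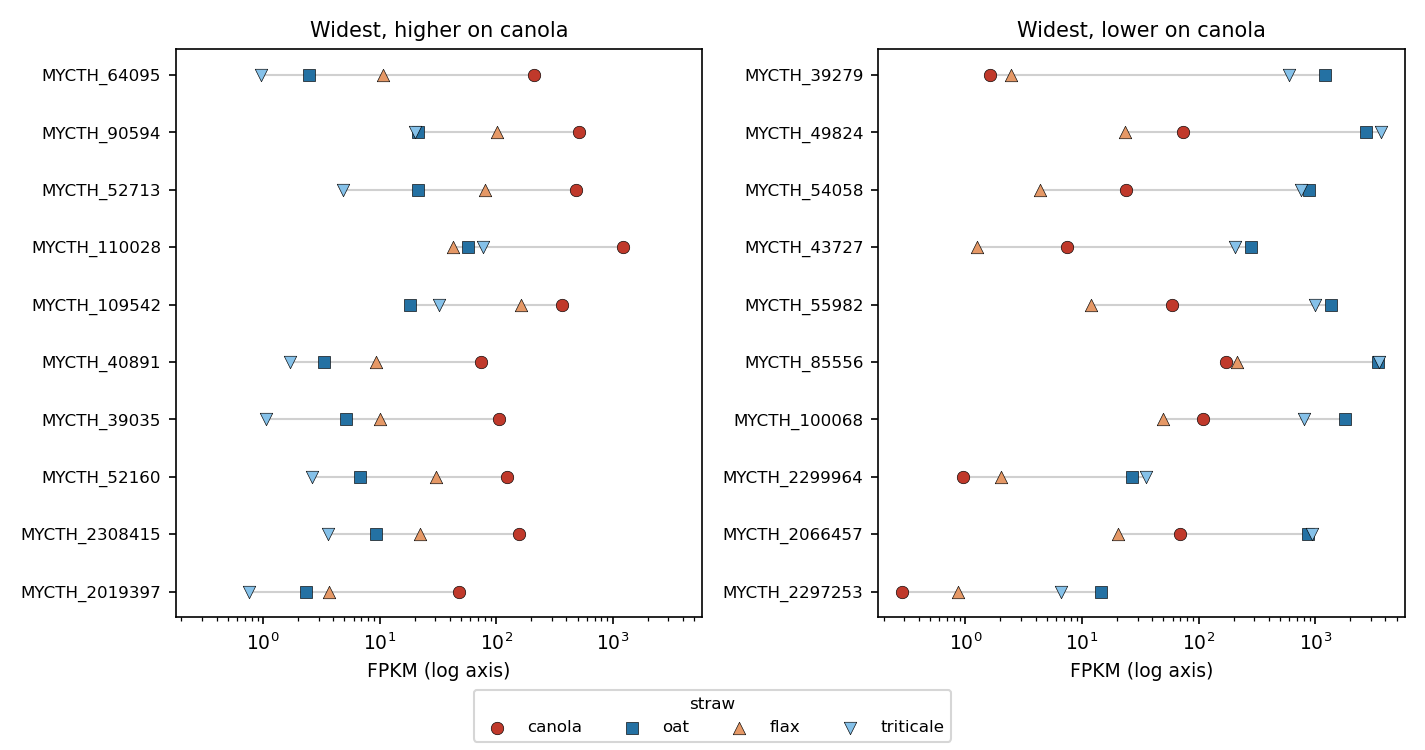
FPKM (log axis) on each of the 4 straws for the 10 genes with the largest ratio of FPKM + 1 in each direction, among those reaching 10 FPKM in canola or oat. Each point is 1 library and the grey line joins the lowest and the highest. On the right the canola and flax points lie apart from the oat and triticale points in all 10 genes. On the left canola is the highest point of every gene, which the choice by canola over oat favours.

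The genes higher on canola were more numerous and mostly of moderate level. The 594 higher genes held 10.6% of all canola reads and 3.20% of oat reads, with a median of 32.0 FPKM on canola and 10.4 on oat. MYCTH_64095 was the widest, with 211 FPKM on canola (5130 reads) and 2.47 on oat (55 reads), a ratio of 85.5 (65.5 to 114). MYCTH_90594 had 516 FPKM on canola and 21.5 on oat, a ratio of 24.0 (20.6 to 28.1). MYCTH_52713 had 485 FPKM on canola and 21.5 on oat, a ratio of 22.6 (19.4 to 26.5). MYCTH_110028 was the most abundant of the 10 widest, with 1219 FPKM on canola and 57.7 on oat, a ratio of 21.1 (19.6 to 22.8). After the first gene the ratios of the 10 widest were alike, between 16.9 for MYCTH_2308415 and 24.0.

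MYCTH_109542 had 369 FPKM on canola and 18.3 on oat, and MYCTH_2308415 had 157 FPKM on canola and 9.34 on oat. MYCTH_52160 had 123 FPKM on canola and 6.73 on oat, and MYCTH_39035 had 105 FPKM on canola and 5.14 on oat. MYCTH_40891 had 74.3 FPKM on canola and 3.36 on oat, and MYCTH_2019397 had 48.0 FPKM on canola and 2.34 on oat. MYCTH_90594 and MYCTH_40891 are direct neighbours in the RefSeq annotation. The 10 gene models were 818 to 3046 bases long, and together they took 0.532% of reads on canola and 0.0231% on oat. Outside this group, model 2303056, which matched no locus tag, had 121 reads on canola and 1 on oat, a ratio of 111 with a counting interval of 19.5 to 4414.

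The balance of higher and lower genes varied with the level of the gene. Among the 330 genes with a mean of 300 FPKM or more over canola and oat, 20 were at least 2-fold higher on canola (6.06%) and 28 at least 2-fold lower (8.48%). In the class of 100 to 300 FPKM, 67 of 729 genes were higher (9.19%) and 24 lower (3.29%). In the class of 10 to 30 FPKM, 204 of 2866 were higher (7.12%) and 55 lower (1.92%). Of the 94 genes that reached 1000 FPKM on canola or oat, 8 were in the higher set and 16 in the lower set. The shares over all tested genes were 7.20% higher and 2.61% lower, so the 8 higher genes are near the share over all genes. With the trend of the ratio with level removed, 22 genes of the top class were higher and 26 lower. By length, the share of lower genes was 4.24% among models of 800 to 1200 bases and 1.53% among those of 2500 to 5000 bases, while the share of higher genes was 6.56% and 5.42%.

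**Figure D3:**
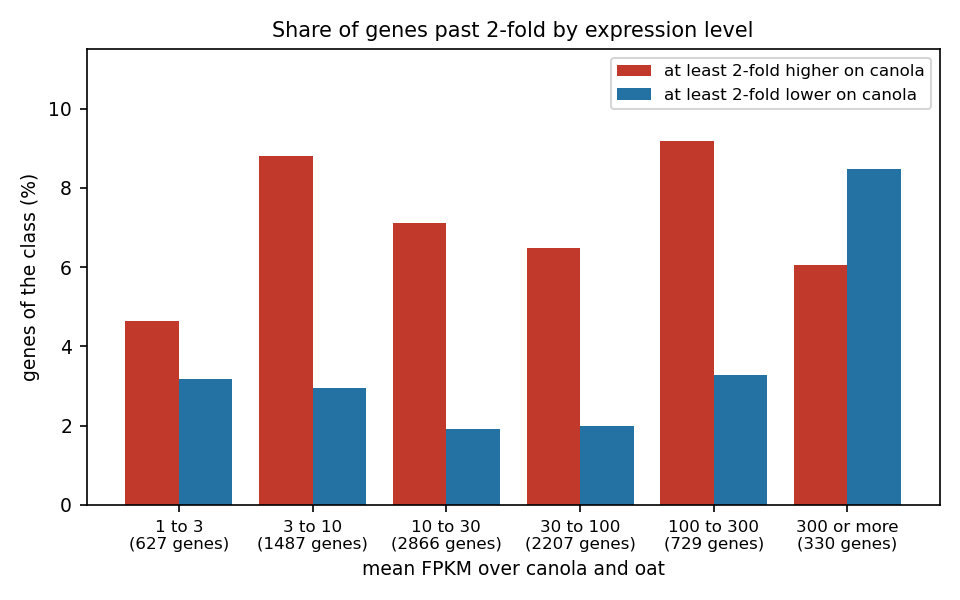
Percentage of genes at least 2-fold higher (left bar) and at least 2-fold lower (right bar) on canola than on oat, by mean FPKM over the 2 libraries, with the number of genes in each class under the axis. The class of 300 FPKM or more is the one in which the lower genes (8.48%) outnumber the higher genes (6.06%).

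The 6 genes with a symbol lay on both sides. cbdA encodes cellobiose dehydrogenase, a secreted oxidoreductase that takes electrons from cellobiose and passes them to the enzymes that cleave cellulose by oxidation. Its transcript had 267 FPKM on canola and 807 on oat, a log2 ratio of -1.59, and an oat over canola ratio of 3.02 (2.94 to 3.11). It was the one gene with a symbol in the lower set. gla1 encodes glucoamylase, which releases glucose from starch, and had 83.7 FPKM on canola and 36.9 on oat, a ratio of 2.27 (2.07 to 2.48). phy1 encodes a phytase, which frees phosphate from phytate, and had 8.76 FPKM on canola and 3.72 on oat, a ratio of 2.36 (1.64 to 3.45). Both were in the higher set, phy1 on 108 reads on canola and 42 on oat. phy1 lay close to the limit, with a log2 ratio of 1.049. Its log2 ratio was 0.9585 under upper-quartile scaling, 0.9976 with the trend with length removed and 0.9843 with the trend with level removed. With 10 FPKM added in place of 1, the log2 ratio was 0.4516 for phy1 and 0.9967 for gla1, both inside 2-fold.

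The remaining genes with a symbol were not past 2-fold. ganA encodes an endo-galactanase acting on the galactan side chains of pectin, and had 275 FPKM on canola and 142 on oat, a ratio of 1.93 (1.80 to 2.07). cat1 encodes a catalase, which breaks down hydrogen peroxide, and had 25.6 FPKM on canola and 14.1 on oat, a ratio of 1.81 (1.57 to 2.09). Both intervals lie above 1 in these libraries, and that of cat1 and of ganA includes 2. The laccase gene lcc1 had 4 reads on canola and 2 on oat and was below the filter, so a difference was not detectable at this depth.

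A few abundant genes carried the largest shifts in the make-up of the RNA. The largest loss was that of MYCTH_109444, which took 0.0411% of reads on canola (292 FPKM) and 0.448% on oat (3178 FPKM). MYCTH_109566 had 896 FPKM on canola and 2567 on oat, and MYCTH_110651 had 548 FPKM on canola and 2193 on oat. MYCTH_2313501, by far the longest of the named models at 41976 bases, had 27.6 FPKM on canola and 104 on oat, a ratio of 3.76 for oat over canola (3.67 to 3.85). These genes and MYCTH_85556 were the 5 with the largest loss, and together they took 0.458% of reads on canola and 2.19% on oat.

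The largest gain was that of MYCTH_87219, which took 0.357% of reads on canola (3845 FPKM) and 0.0831% on oat (896 FPKM). MYCTH_55717 had 1802 FPKM on canola and 190 on oat, a ratio of 9.51 (9.11 to 9.92). MYCTH_102322 had 2470 FPKM on canola and 564 on oat, a ratio of 4.38 (4.25 to 4.52). MYCTH_112686 had 1715 FPKM on canola and 984 on oat, a ratio of 1.74 and thus outside the 2-fold set. With MYCTH_110028, these 5 genes held 1.63% of canola reads and 0.467% of oat reads. Their summed reads did not keep this direction in the other 2 libraries, with 0.385% of flax reads and 0.549% of triticale reads, though single genes differed. Of the 5, 1 was at least 2-fold higher on flax than on triticale and 1 at least 2-fold lower (21.8% and 5.28% of all tested genes). All 5 genes with the largest loss were at least 2-fold lower on flax. The most abundant transcripts were nearly level. The same 5 models led both libraries, at 11819 to 18818 FPKM on canola and 10743 to 17499 on oat, with ratios of 1.07 to 1.13. Under upper-quartile scaling the log2 ratio of model 2071561 and MYCTH_2071953, the 2 with the lowest ratios, turned slightly below 0.

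The flax and triticale libraries gave a second dicot over cereal pair that shares no library with canola and oat and in which both cultures were 24 h old. In that pair 1799 of the same 8246 genes were at least 2-fold higher on flax than on triticale (21.8%) and 435 at least 2-fold lower (5.28%). Its median log2 ratio was 0.19, and after median centring 1377 genes were higher and 637 lower. Of the 594 genes higher on canola than on oat, 313 (52.7%) were also at least 2-fold higher on flax than on triticale, 29 (4.88%) were at least 2-fold lower and 252 were within 2-fold. The 313 made up 17.4% of the 1799. Of the 215 genes lower on canola than on oat, 114 (53.0%) were at least 2-fold lower on flax than on triticale and 3 (1.40%) at least 2-fold higher. The 114 made up 26.2% of the 435.

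At 4-fold, a larger share of the lower than of the higher genes was also apart between flax and triticale. Of the 55 genes at least 4-fold lower on canola than on oat, 52 (94.5%) were at least 2-fold lower on flax than on triticale, 42 of them at least 4-fold, and 0 were 2-fold higher. Over all tested genes, 435 (5.28%) were at least 2-fold lower on flax than on triticale, and 98 (1.19%) at least 4-fold lower. At least 2-fold higher were 1799 (21.8%), and at least 4-fold higher 301 (3.65%). Of the 98 genes at least 4-fold higher on canola than on oat, 58 (59.2%) were at least 2-fold higher on flax than on triticale, 31 of them at least 4-fold, and 8 (8.16%) were at least 2-fold lower. The 55 genes held 0.207% of flax reads and 2.74% of triticale reads, beside 0.314% of canola reads and 3.09% of oat reads. The 98 genes held 3.90% of canola reads and 0.616% of oat reads, against 1.02% of flax reads and 0.613% of triticale reads. These genes were chosen by their ratio of canola to oat, and flax and triticale had no part in the choice. The difference between the directions was not tested.

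Nearly all of the 10 widest genes in each direction were also apart in the second pair. All 10 of those lower on canola were at least 2-fold lower on flax than on triticale, with log2 ratios of -7.42 to -2.03. Over all tested genes, 5.28% were at least 2-fold lower on flax than on triticale and 21.8% at least 2-fold higher. MYCTH_49824 had 23.4 FPKM on flax and 3656 on triticale, and MYCTH_54058 had 4.34 FPKM on flax and 749 on triticale. Of the 10 widest genes higher on canola, 9 were at least 2-fold higher on flax than on triticale. MYCTH_110028 was not, with 42.9 FPKM on flax and 77.6 on triticale. In all 10, canola had the highest level of the 4 libraries, which their choice by the ratio of canola to oat favours. MYCTH_64095 had 10.7 FPKM on flax and 0.960 on triticale, and MYCTH_52713 had 79.5 FPKM on flax and 4.89 on triticale. MYCTH_109542 was closer on the dicot straws, with 163 FPKM on flax and 32.3 on triticale beside 369 on canola. Among the genes with a symbol, cbdA had 119 FPKM on flax and 498 on triticale, the same direction as in canola and oat. gla1 had 22.7 FPKM on flax and 20.3 on triticale, and ganA had 91.5 FPKM on flax and 131 on triticale, so neither was at least 2-fold apart in the second pair. cat1 and phy1 were wider there than between canola and oat, in the same direction: cat1 had 135 FPKM on flax and 4.32 on triticale, and phy1 had 11.9 FPKM on flax and 1.30 on triticale.

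**Figure D4:**
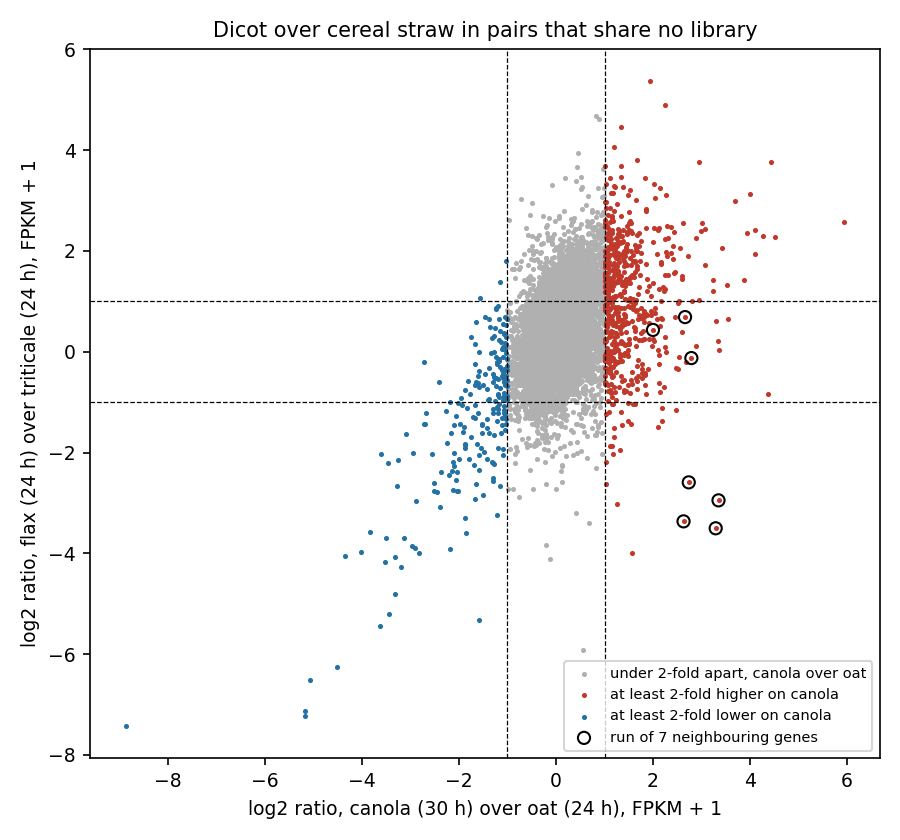
Log2 ratio of flax over triticale (y axis) against that of canola over oat (x axis), both of FPKM + 1, for the 8246 tested genes, with dashed lines at 2-fold. Past 2-fold in both pairs are 114 of the 215 genes lower on canola (lower left) and 313 of the 594 genes higher on canola (upper right), and 4 circled genes of a run of 7 neighbouring genes lie at the lower right.

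Part of the genes higher on canola lay next to each other. Of the 592 higher genes with a place in RefSeq gene order, 186 (31.4%) had a direct neighbour that was also at least 2-fold higher, against 1003 (12.2%) of all 8225 tested genes with a place. They formed 78 runs, of which 16 held 3 or more genes, 62 genes in all. Of the 212 lower genes with a place, 50 (23.6%) had a direct neighbour that was also lower, against 352 (4.28%) of all 8225, in 20 runs of which 9 held 3 or more. No test was made of these shares, and reads of overlapping neighbours may not be separated.

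The longest run held 11 consecutive genes, all higher on canola, with ratios of FPKM + 1 between 2.44 and 10.7. It began with MYCTH_68164, a long model of 12198 bases, which had 12.5 FPKM on canola (1219 reads) and 3.49 on oat (311 reads). MYCTH_115957 had 85.6 FPKM on canola and 10.7 on oat, a ratio of 7.98 (6.47 to 9.94). The run ended with MYCTH_48716, at 35.0 FPKM on canola and 2.36 on oat, a ratio of 14.8 (9.83 to 23.5). Between them, MYCTH_2303702 had 25.9 FPKM on canola and 3.997 on oat, MYCTH_81364 had 22.9 FPKM on canola and 3.39 on oat, and MYCTH_2303709 had 19.9 FPKM on canola and 3.06 on oat. The genes on either side were under 2-fold apart between canola and oat. MYCTH_2303695 had 14.2 FPKM on canola and 19.1 on oat, and MYCTH_107763 had 46.9 FPKM on canola and 34.9 on oat. Canola gave the highest level of the 4 straws for 10 of the 11, which the choice by the ratio of canola to oat favours. The exception was MYCTH_50920, with 85.6 FPKM on canola, 34.5 on oat, 99.4 on flax and 24.8 on triticale. On flax 5 of the 11 were at least 2-fold above triticale and 0 at least 2-fold below. Over all tested genes those shares were 21.8% and 5.28%, so 0 of 11 below is near what the share over all genes gives. With a pseudocount of 10, 8 of the 11 were past 2-fold.

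The next longest run held 7 consecutive genes and was chosen for description after its values were seen. It also contained a long model, MYCTH_78013 of 12611 bases, which had 7.49 FPKM on canola (754 reads) and 0.228 on oat (21 reads), a ratio of 32.9 (21.4 to 53.5). It stood at 0.130 FPKM on flax and 0.232 on triticale, so canola was the only straw on which it passed 1 FPKM. MYCTH_2303048 had 14.3 FPKM on canola and 1.42 on oat, and MYCTH_78019 had 12.9 FPKM on canola and 2.48 on oat. Both were also low on flax and triticale, at 1.195 to 2.552 FPKM. The other 4 genes of the run had a different order of straws. MYCTH_106502 had 45.9 FPKM on canola, 3.79 on oat, 0.774 on flax and 19.1 on triticale. MYCTH_114666 had 44.8 FPKM on canola, 3.49 on oat, 1.10 on flax and 15.2 on triticale. MYCTH_2133773 and MYCTH_114667 followed the same order, with canola highest, then triticale, then oat, then flax. MYCTH_2133773 and MYCTH_78019 overlap by 14 bases, and the flanking genes MYCTH_2029812 and MYCTH_2303060 were level between canola and oat, at 7.97 and 6.54 FPKM on canola and 9.33 and 7.05 FPKM on oat. With a pseudocount of 10, 5 of the 7 were past 2-fold.

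The longest run lower on canola held 4 genes. MYCTH_94532 had 23.6 FPKM on canola and 88.7 on oat, and MYCTH_2307822 had 17.7 FPKM on canola and 84.1 on oat. MYCTH_2128529 had 1.02 FPKM on canola (7 reads) and 7.50 on oat (47 reads), and MYCTH_51839 had 0.966 FPKM on canola (11 reads) and 4.89 on oat (51 reads). All 4 were also at least 2-fold lower on flax than on triticale, with log2 ratios of -3.92 to -1.83. Over all tested genes that share was 5.28%. The flanking genes MYCTH_2128527 and MYCTH_52469 had 12.4 and 178 FPKM on canola and 14.3 and 166 FPKM on oat. Both were also lower on flax than on triticale, at 2.44 and 49.6 FPKM on flax and 10.2 and 260 FPKM on triticale. The difference between flax and triticale was thus not confined to the run. With a pseudocount of 10, 2 of the 4 were past 2-fold.

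**Figure D5:**
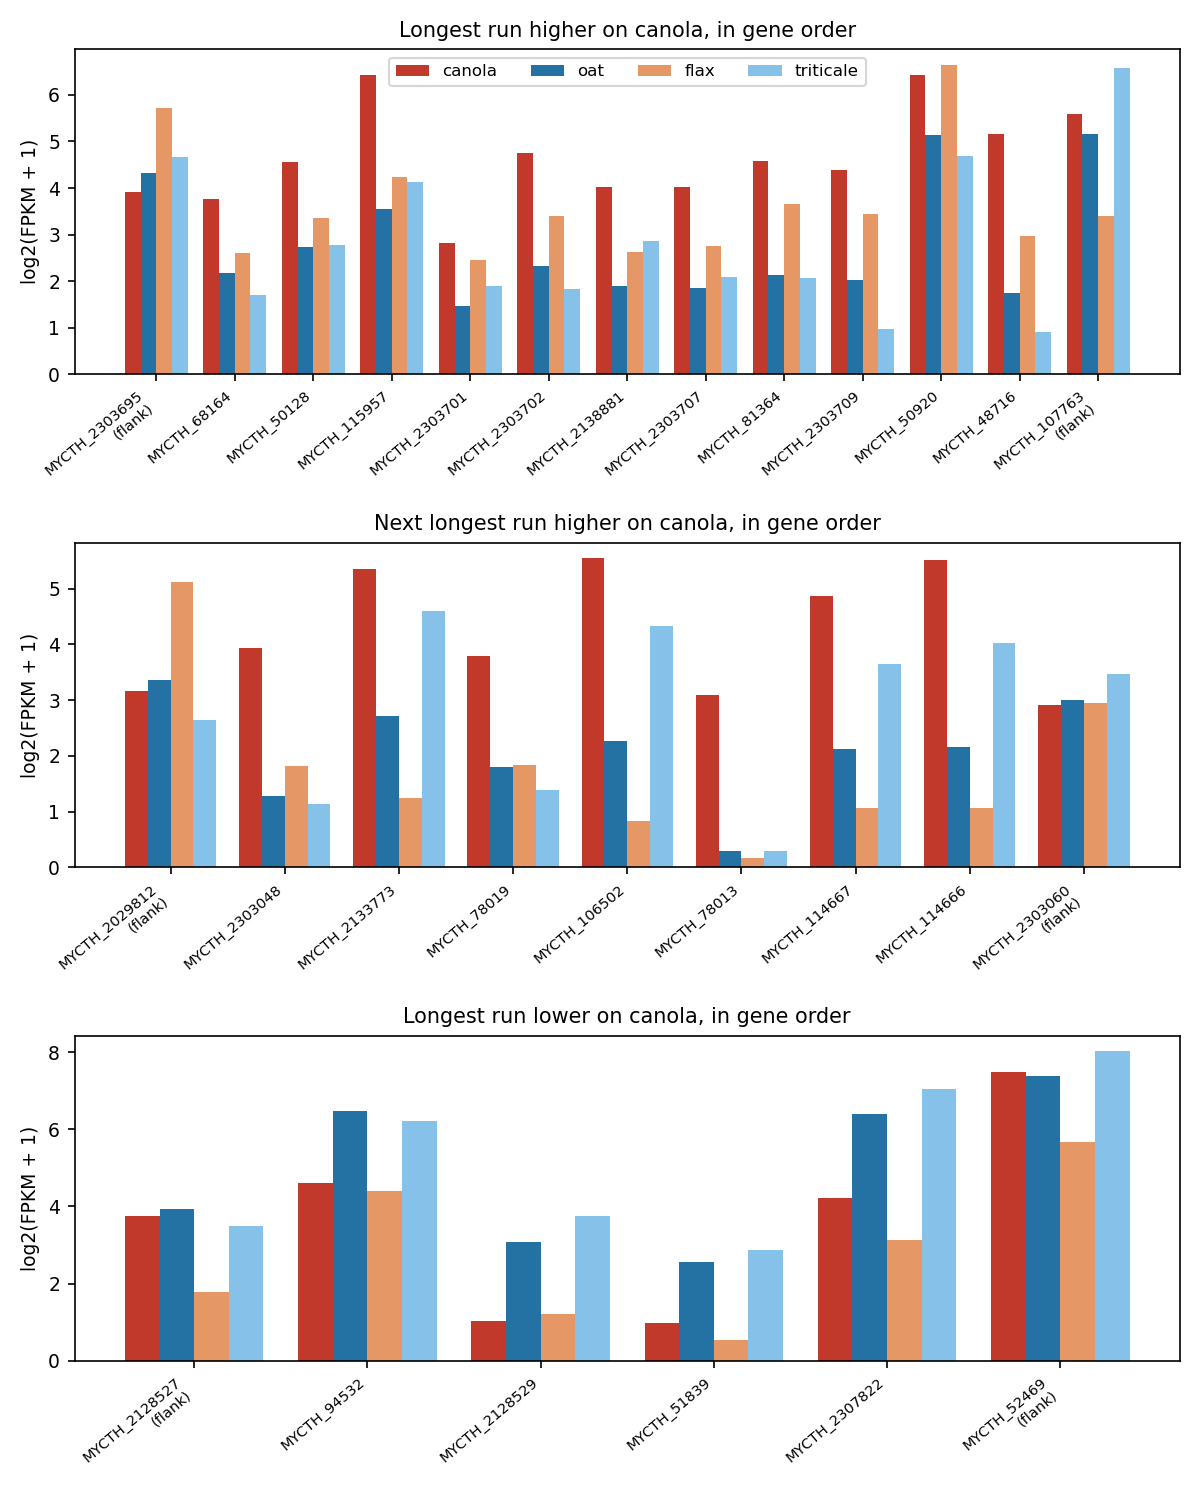
Levels as log2(FPKM + 1) on canola, oat, flax and triticale straw (1 library each, bars from left to right) for the genes of 3 runs of neighbouring genes at least 2-fold apart between canola and oat, in RefSeq gene order with the gene on each side. In the runs of 11 and 7 genes the canola bar stands above the oat bar at every member and not at the flanking gene on the left, and in the run of 4 genes it stands below.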

How the data were processed

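Poly(A) RNA from mycelium on each straw was sequenced with an Illumina mRNA-Seq kit after Trizol extraction, per the labels' protocols. The authors deposited FPKM values for 9110 gene models; no aligner, build or annotation is named in the labels or headers. FPKM multiplied by length gave whole reads in 100% of values (within 0.001 of a whole multiple), so reads per gene were recovered. Model numbers were matched to RefSeq locus tags (assembly ASM22609v1) for 9087 models, 9075 of them with the length of the RefSeq span. No coordinates are given because the build of the files is not stated.

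Genes with a mean of at least 1 FPKM over canola and oat were compared by log2(FPKM + 1), with limits of 2-fold and 4-fold. Exact Clopper-Pearson intervals (95%) of FPKM ratios were computed from recovered reads with SciPy 1.17.1. PCR copies are not independent molecules. The fold rule was run on simulated counts with counting error alone and 200 genes set apart. That simulation held no spread between cultures, so it cannot show how the rule deals with such spread. The 27 planned gene lists, on product text and protein patterns, could not be evaluated, since neither kind of annotation was used here. Named genes are the 10 widest in each direction reaching 10 FPKM in either library, the 5 largest gains and losses in percent of reads, genes with a symbol, the 5 most abundant of each library, those nearest the limits and the longest runs of neighbours. The run of 7 neighbouring genes was added to the named genes after its values were seen. The genes, lists and comparison were chosen with earlier results of these data known. Alternatives were other pseudocounts, filters, scalings and removal of lowess trends with length or level.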

Additional observations from a re-analysis of the deposited data

Results flagged for a closer look

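For 5 of the named genes the difference between canola and oat and that between flax and triticale ran in opposite directions, at least 2-fold in both; with 1 library for each straw, the difference between the pairs was not tested. MYCTH_87219 was higher on canola than on oat (log2 ratio 2.10) and lower on flax than on triticale (-1.501). The other 4 belong to the run of 7 neighbouring genes. That run was chosen for description after its values were seen, so the count of 5 depends on that choice. The log2 ratio of canola over oat was 3.29 for MYCTH_106502, 3.35 for MYCTH_114666, 2.63 for MYCTH_2133773 and 2.74 for MYCTH_114667. The log2 ratio of flax over triticale was -3.503 for MYCTH_106502, -2.948 for MYCTH_114666, -3.365 for MYCTH_2133773 and -2.591 for MYCTH_114667. Over all tested genes, 29 were opposite in this way and 3 in the other, with canola below oat but flax above triticale. The 29 made up 4.88% of the 594 higher genes. A flax level 2-fold or more below triticale had a share of 5.28% among the 8246, so 4.88% is near that share. The 3 made up 1.40% of the 215 lower genes, where flax 2-fold or more above triticale had a share of 21.8% among the 8246.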

How the results depend on the processing

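With a pseudocount of 10 in place of 1, 226 genes were at least 2-fold higher on canola than on oat and 113 lower, and 43 and 31 at 4-fold; this scale shrinks ratios of low genes by construction. In the same setting flax over triticale gave 579 higher and 227 lower genes, and 79 and 69 genes were past 2-fold in both pairs in the same direction. Requiring the counting interval to lie beyond 2-fold left 371 higher and 138 lower genes. Under the other alternatives (a pseudocount of 0.1, no filter or a mean of at least 10 FPKM, median centring, upper-quartile scaling, and, for canola over oat alone, removal of the trend with length or level) each of these counts stayed within 1.5 times its value. Upper-quartile scaling lowered the ratios by 0.10 on the log2 scale and gave 475 higher and 258 lower genes. Of the 54 named genes past 2-fold, 43 were past it with a pseudocount of 10 and 52 under upper-quartile scaling and with either trend removed. None of the 54 turned sign under the 8 alternatives, of which the filter at a mean of 10 FPKM kept 43 of these genes. For most alternatives this was fixed in advance. A change of pseudocount or filter cannot turn a sign, and the 2 scalings shifted ratios too little to turn that of a gene past 2-fold. The planned gene lists gave no value under any setting. No paired analysis was possible because each straw has 1 library, and no library could be left out for the same reason.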
